A study of Drosophila melanogaster with 2 samples.

Results

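The insulin pathway of Drosophila was described here by 10 genes: the insulin-like peptide genes Ilp1 to Ilp7, the receptor gene InR, the receptor substrate gene chico and the transcription factor gene foxo. The rows bearing these gene symbols were taken from the expression tables, which gave all 10 of the genes sought among 17301 genes and 21 of 33522 transcripts that carry a gene identifier. The rule uses symbols and no expression value.

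RNA had been sequenced from pooled whole embryos of Drosophila melanogaster collected from 0 to 16 h after laying and reared at 25 °C, as 1 poly(A)-selected library per genotype, 2 libraries in all. Both crosses shared a driver line that is y1 w* on the X chromosome and carries P{en2.4-GAL4}e22c, a GAL4 insertion with engrailed promoter sequence, together with P{tGPH}4, kept over the balancer TM3, Ser1. In the library labelled knockdown these flies had been crossed to a y1 v1 line with P{TRiP.JF02125}attP2, which carries a GAL4-responsive hairpin against Lim3, a LIM-homeodomain gene of motor neurons. In the control library they had been crossed to a y1 v1 line with P{y+t7.7=CaryP}attP2, which has the same landing site and no hairpin. The element P{tGPH}4, present in both crosses, is itself an insulin pathway tool: it expresses a green fluorescent protein joined to a domain that binds the lipid product of PI3 kinase. A pool mixes all stages from cleavage to late organ formation, so fewer cells of a type and less RNA per cell cannot be told apart.

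Insulin-like peptides are secreted hormones that bind the receptor tyrosine kinase encoded by InR. The activated receptor phosphorylates Chico, the fly's insulin receptor substrate, and PI3 kinase, Pdk1 and Akt act in turn; Akt phosphorylates the forkhead factor Foxo and keeps it out of the nucleus, where it would otherwise activate genes of starvation and stress. The peptides have different sources: Ilp2, Ilp3 and Ilp5 are made by neurosecretory cells of the larval brain, Ilp4 by the embryonic mesoderm and midgut, Ilp6 largely by the fat body and glia, and Ilp7 by neurons of the ventral nerve cord. Feeding larvae and adults are the stages for which the pathway's control of growth is best known.

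The level of a gene is given below as FPKM, the fragments mapped to it per kilobase of transcript length and per 1000000 fragments mapped in the library, summed over its transcripts. Depth, read from the smallest values in the tables, was about 33000000 fragments in the library labelled knockdown, against 21600000 in the control library. The 95% intervals printed with levels and ratios rest on that estimate and cover counting error only. Each group is 1 library, so the differences stand without replicates and no test was made. Where a pair of values follows a gene with no library named, the value of the library labelled knockdown comes first. Lim3, the targeted gene, had 18.5 FPKM in the library labelled knockdown, against 5.81 FPKM in the control library. This direction is not that of a knockdown, so both libraries are called by their labels throughout. Whether RNA of the hairpin was counted as Lim3 RNA was not tested. Were the labels exchanged, every direction and ratio given here would turn, and whether they were was not tested. Markers of both early and late embryos were present. Yolk protein, chorion and vitelline membrane genes of the mother were at 0.875 FPKM or less. Of 5 male accessory gland genes, SP was at 5.71 and 1.37 FPKM, Acp95EF at 28.2 and 22.2 FPKM, and the other 3 at 1.20 FPKM or less.

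Among the ligands, Ilp4 and Ilp6 made up nearly all of the measured insulin-like peptide RNA of these embryos. Ilp4 (FBgn0044049) had 37.3 FPKM in the library labelled knockdown (34.9 to 39.9), against 35.0 FPKM in the control library (32.3 to 37.9). Ilp6 (FBgn0044047) was at 23.2 FPKM (21.7 to 24.9) and 20.6 FPKM (18.8 to 22.5). Together these genes held 97.9% of the summed FPKM of Ilp1 to Ilp7 in the library labelled knockdown, against 98.6% in the control library, and Ilp4 alone held 60.4% and 62.1%. Ilp4 lay above 70.7% of the 10576 genes that reached 1 FPKM in either library, and Ilp6 above 57.5%, both in the library labelled knockdown.

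The 5 other ligands had a sum of 1.29 FPKM in the library labelled knockdown, against 0.783 FPKM in the control library, and none of them reached 1 FPKM in either. Ilp2, the main larval brain insulin, was at 0.636 and 0.421 FPKM, on about 11 and 5 fragments. Ilp5 was at 0.436 and 0.153 FPKM on about 4 fragments and 1, so that its 2.85-fold ratio had an interval from 0.282 to 141. Ilp3 was at 0.138 and 0.135 FPKM on about 3 and 2 fragments. Ilp7 was at 0.0774 and 0.0749 FPKM on about 3 and 2 as well. Ilp1, which in the fly is best known from the pupal brain, was listed at 0 in both libraries. A difference between the libraries was not detectable for these genes at this depth. Neuroendocrine markers were measured beside them: dimm, a regulator of the secretory program of peptide cells, was at 0.867 and 0.674 FPKM, amon, a prohormone convertase gene, at 1.90 and 1.59 FPKM, and Phm, a peptide-amidating enzyme gene, at 43.4 and 44.0 FPKM.

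**Figure D1:**
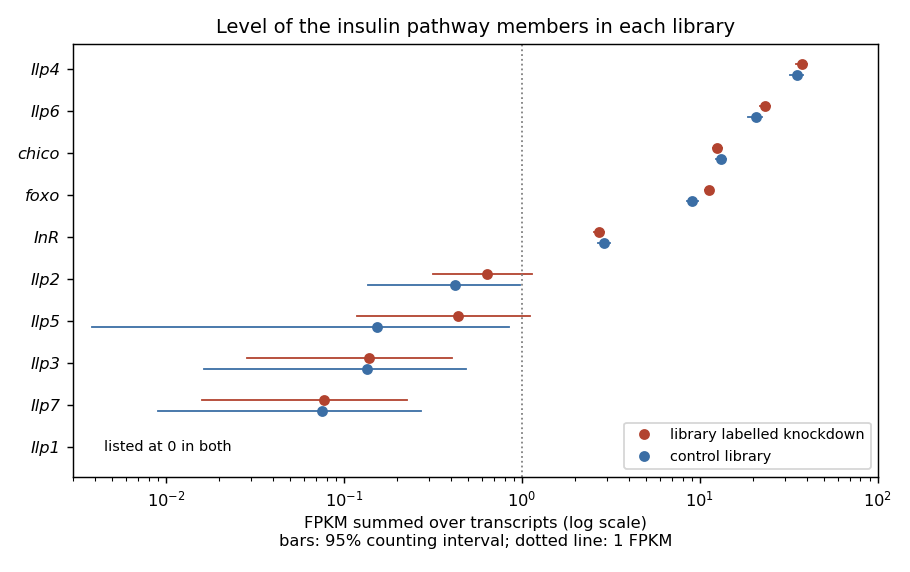
Level of the 10 genes in FPKM on a log scale, red for the library labelled knockdown and blue for the control library, with 95% counting intervals as bars and 1 FPKM as a dotted line. Ilp4, Ilp6, chico, foxo and InR lie above 1 FPKM with short intervals, and the other ligands lie below it with wide ones; Ilp1 was listed at 0 in both libraries.

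An abundant ligand and ligands near 0 were neighbours in the genome. In the Release 6 annotation Ilp1 to Ilp5 stand within 25478 nt of chromosome 3L, with Ilp1 on the plus strand from 9798420 to 9799050 and Ilp2 following it after 647 nt, from 9799698 to 9800440. Ilp3 lies on the minus strand from 9801298 to 9802120 and Ilp4, 1278 nt further, from 9803399 to 9804263. Ilp5 lies 19085 nt beyond Ilp4, from 9823349 to 9823897, also on the minus strand. Ilp4 was thus at 37.3 FPKM in the library labelled knockdown with Ilp3, its nearest neighbour, at 0.138 FPKM. The gene CG32052, whose Release 6 span holds Ilp1 to Ilp4, was at 0.310 and 0.303 FPKM. In Release 6 it shares 258 nt of exon with Ilp1 on the same strand, 40.9% of the Ilp1 exon bases. In the coordinates of the files, Ilp1 has a locus of 465 nt that holds no other gene, from 9791534 to 9791998. The overlap was therefore not in the annotation that gave these FPKM values. CG43897, whose span holds Ilp5 on the opposite strand without a shared exon base, was at 68.7 and 50.8 FPKM.

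Ilp6 and Ilp7 lie on the X chromosome, in Release 6 from 2331493 to 2334658 on the minus strand and from 3667621 to 3668845 on the plus strand. Ilp6 sits inside the span of phl, now named Raf, the kinase gene of the Ras pathway, on the opposite strand and with no shared exon base; phl was at 20.3 and 26.5 FPKM. Ilp7 shares 9 nt of exon with Parg, which was at 13.6 and 15.5 FPKM. The annotated coding sequences give precursors of 154 residues for Ilp1, 137 for Ilp2, 120 for Ilp3, 134 for Ilp4, 108 for Ilp5, 107 for Ilp6 and 159 for Ilp7, so that the shortest precursor belongs to 1 of the abundant genes.

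Between the libraries the abundant ligands differed little. On the scale log2((knockdown + 1)/(control + 1)), Ilp4 had a difference of 0.09 and a plain ratio of 1.07 (0.961 to 1.19). Ilp6 had a difference of 0.17 and a ratio of 1.13 (1.01 to 1.27). A difference at least as large as that of Ilp6 was seen in 52.3% of the genes tested.

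Ilp6 has 4 annotated transcripts, which share 569 exon bases including the whole coding sequence and differ only in the first exon. FBtr0070406, whose first exon of 1339 nt lies farthest upstream, had 10.3 FPKM in the library labelled knockdown, against 7.74 FPKM in the control library. FBtr0303997, which begins 2250 nt further downstream, was at 12.2 and 12.2 FPKM. Both minor transcripts were low, FBtr0333731 at 0.567 and 0.413 FPKM, FBtr0303998 at 0.160 and 0.245 FPKM. The upstream transcript had a ratio of 1.33 (1.13 to 1.57) on about 455 and 224 fragments in bases that no other Ilp6 transcript has. The downstream transcripts together had a ratio of 1.02 (0.510 to 2.07), on about 22 and 16 such fragments. That interval holds the upstream ratio, so which transcripts carried the excess of Ilp6 in the library labelled knockdown was not resolved. Here and below, fragments in distinguishing bases are the number that a transcript's FPKM implies there, not an observed count. The upstream transcript's share of the gene's FPKM was 44.2% and 37.6%.

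The receptor gene InR (FBgn0013984) had the lowest level of the signalling genes, 2.72 FPKM in the library labelled knockdown (2.55 to 2.90), against 2.89 FPKM in the control library (2.67 to 3.11). InR lies on the minus strand of chromosome 3R, from 17395970 to 17445043 in the coordinates of the files and from 21570248 to 21619321 in Release 6. The summed level was close between the libraries, with a log2 difference of -0.06 and a ratio of 0.942 (0.852 to 1.04), and it stood on about 928 and 660 fragments. Scaling both libraries to an equal sum of FPKM turned this difference to 0.14.

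The InR total concealed opposite differences among its transcripts. The 4 annotated transcripts encode the same receptor of 2144 residues and share 9842 exon bases; they differ in where they start and in noncoding 5′ exons. FBtr0290230 and FBtr0084121 start 285 nt apart at the distal end of the gene and share a further noncoding exon of 554 nt. FBtr0290231 starts 27200 nt downstream of FBtr0290230, with a first exon of 155 nt. FBtr0290232 starts at 29130 nt from the distal end and was near 0, at 0.000837 and 6.75e-05 FPKM.

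The distal transcripts were lower in the library labelled knockdown. FBtr0290230 was at 0.608 FPKM there, against 1.33 FPKM in the control library. FBtr0084121 was at 0.695 and 1.13 FPKM. Together they were at 1.30 and 2.46 FPKM, a ratio of 0.529 (0.334 to 0.834), on about 37 and 45.6 fragments in the 1149 nt of exon that only they have. They held 47.9% of the InR FPKM in the library labelled knockdown, against 85.3% in the control library.

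The proximal transcript FBtr0290231 was higher, at 1.42 FPKM in the library labelled knockdown, against 0.424 FPKM in the control library, or 52.1% and 14.7% of the gene. Its 3.34-fold ratio rests on the 155 nt of exon that only it has, with about 7.3 and 1.4 fragments there, and the interval runs from 0.430 to 151. The lower level of the distal transcripts is therefore better measured than the higher level of the proximal one. The authors' software divided the fragments in the shared exons among the transcripts, and error in that division is not in these intervals.

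**Figure D2:**
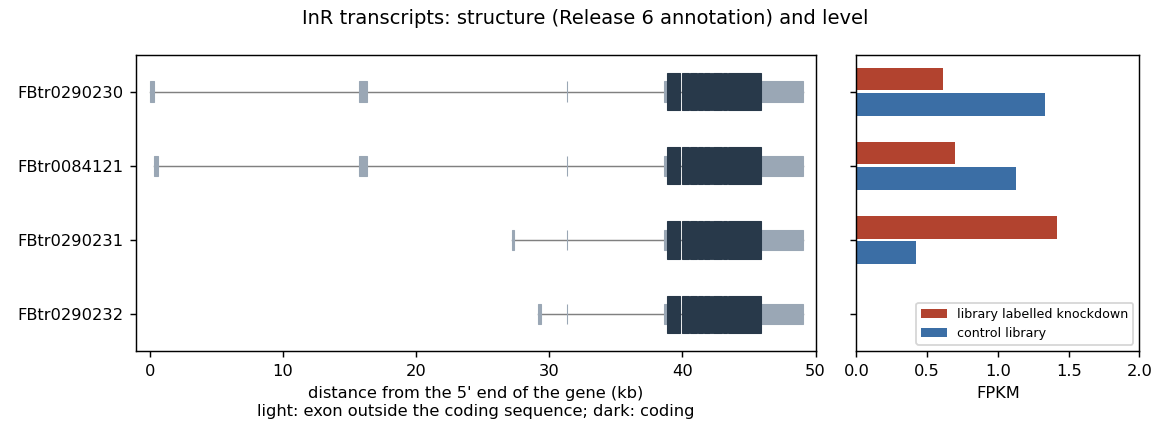
Left, the 4 InR transcripts drawn to scale by distance in kb from the 5′ end of the gene in the Release 6 annotation, with coding exons dark and other exons light. Right, bars of their FPKM, red for the library labelled knockdown and blue for the control library: both distal transcripts are lower and the proximal FBtr0290231 is higher in the library labelled knockdown.

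InR was the only one of the 4 members with several transcripts whose most abundant transcript differed between the libraries, FBtr0290231 in the library labelled knockdown and FBtr0290230 in the control library. Over all genes with at least 2 transcripts, the most abundant transcript differed in 11.0%. With a limit chosen after the values were seen, a transcript share differed by 30 points or more in 5.05% of these genes, and in 16.9% of those at 1 to 5 FPKM in both libraries, the range in which InR lies. The share of FBtr0290231 differed by 37.4 points. Of the genes at 1 to 5 FPKM, 10.9% differed by at least as much.

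Noncoding genes lie beside both InR start regions. CR44034, on the same strand inside the first intron of FBtr0290230, had 0.154 FPKM in the library labelled knockdown, against 0.590 FPKM in the control library, on about 3 and 8 fragments. CR43653, named Irar in the current annotation, starts 228 nt from the proximal InR start on the opposite strand and was at 0.754 and 0.784 FPKM, on about 34 and 23 fragments. The intervals of both ratios include 1, from 0.0445 to 1.08 for CR44034 and from 0.550 to 1.71 for CR43653.

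The receptor substrate gene chico (FBgn0024248) had 12.6 FPKM in the library labelled knockdown (11.9 to 13.3), against 13.2 FPKM in the control library (12.3 to 14.1). The ratio was 0.953 (0.875 to 1.04) and the log2 difference -0.06, which scaling to an equal sum turned to 0.19. chico lies on chromosome 2L from 10242512 to 10247078, minus strand, in both the files and Release 6. Its transcripts encode 1 protein of 968 residues and differ in noncoding 5′ exons. FBtr0303904, with the shorter first exon, was at 8.76 and 8.80 FPKM. FBtr0080088 was at 3.21 and 4.24 FPKM, and FBtr0333412, which has an additional 349 nt, at 0.584 and 0.132 FPKM on about 6.7 fragments and 1 in those bases. FBtr0303904 and FBtr0080088 each have no exon bases of their own. The transcripts with the longer first exon, FBtr0080088 and FBtr0333412, together had a ratio of 0.869 (0.419 to 1.88). It rests on about 22.4 and 12.8 fragments in bases that only they have, so a difference among the chico transcripts was not resolved. The antisense gene CR44995 covers 10.6% of the chico exon bases and was at 15.5 and 15.5 FPKM. Whether the authors counted by strand is not given in the sources used here, so fragments of that stretch may be shared.

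foxo (FBgn0038197) had the largest difference of the 5 members that reached 1 FPKM. It had 11.3 FPKM in the library labelled knockdown (10.7 to 11.9), against 9.09 FPKM in the control library (8.42 to 9.79). The counting intervals did not overlap, and the ratio was 1.24 (1.13 to 1.36) on about 1320 and 696 fragments. The log2 difference was 0.28, and 30.4% of the genes tested differed at least as much. It stayed above 0 under every other setting, from 0.21 with 5 FPKM added to 0.52 at an equal sum. foxo lies on the plus strand of 3R, from 9882667 to 9913700 in the coordinates of the files and from 14056945 to 14087978 in Release 6.

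Each of the 4 foxo transcripts was listed at a higher level in the library labelled knockdown. FBtr0337094, the most abundant, was at 5.50 and 4.56 FPKM. FBtr0305052 was at 2.87 and 2.34 FPKM, and FBtr0082887 at 2.60 and 2.01 FPKM. FBtr0082886 was at 0.290 and 0.182 FPKM. The first pair encodes a protein of 622 residues and the other pair one of 613, which lacks 9 residues. The longer form held 74.3% of the foxo FPKM in the library labelled knockdown, against 75.9% in the control library. In exon bases that only the longer form has, it had about 20.1 and 10.7 fragments, a ratio of 1.21 (0.554 to 2.80). Of those 160 nt, 133 belong to FBtr0305052 alone. The shorter form had about 3.9 and 1.6 fragments, a ratio of 1.32 (0.189 to 14.6), in 404 nt that all belong to FBtr0082886. FBtr0082887, the more abundant transcript of that form, has no bases of its own. These fragments do not measure the coding forms as wholes, so whether their balance differed was not resolved.

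**Figure D3:**
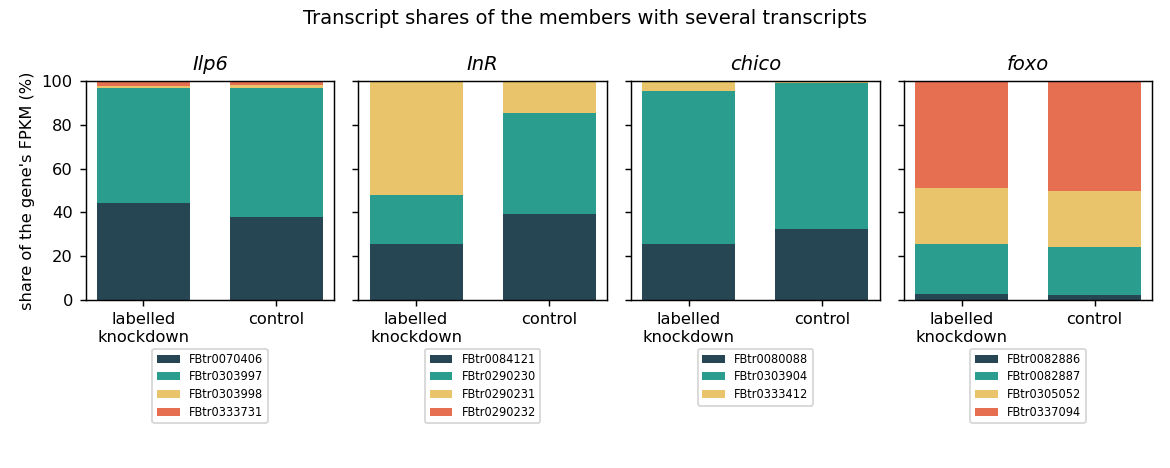
Stacked bars of each transcript's share of its gene's FPKM in percent, for Ilp6, InR, chico and foxo, in the library labelled knockdown (left bar) and the control library (right bar). The InR bars differ by 37.4 points in FBtr0290231, while the largest difference is 6.62 points in Ilp6, 6.59 in chico and 1.25 in foxo.

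In both libraries the members stood in the same order by FPKM: Ilp4, Ilp6, chico, foxo, InR, Ilp2, Ilp5, Ilp3, Ilp7 and Ilp1. Among the upper 5, neighbours in this order had counting intervals that did not overlap. chico and foxo were closest in the library labelled knockdown, with a ratio of 1.12, against 1.45 in the control library. From Ilp2 down to Ilp7 each gene's interval overlapped that of the next, so their order was not resolved.

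By a size rule of at least 2-fold on the log2 scale with 1 added, applied to genes that reached 1 FPKM in either library, none of the 5 members tested passed. Of all 10576 genes tested, 2.39% passed, 1.02% with a higher and 1.37% with a lower level in the library labelled knockdown. With so low a share, 0 of 5 does not set the members apart. Of the 5, foxo, Ilp6 and Ilp4 lay above 0, as did 43.5% of all genes tested. Their median log2 difference was 0.09, beside -0.04 over all genes tested. Of the 21 member transcripts 11 reached 1 FPKM and none of these passed the size rule, which 7.31% of all 18041 transcripts tested did. They ranged from -0.54 for FBtr0290230 to 0.76 for FBtr0290231 of InR. Both lie near 1 FPKM, where the added 1 shrinks a difference, and their plain ratios were 0.456 and 3.34. The count of transcripts was not repeated with other pseudocounts, so it rests on the added 1.

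The 19 genes reported from the list of the intracellular cascade were all at 7.27 FPKM or more in both libraries, and none passed the size rule, with 6 above and 13 below 0 and a median of -0.10. Pi3K21B, the regulatory subunit of PI3 kinase, had the highest difference, at 10.3 FPKM in the library labelled knockdown, against 7.27 FPKM in the control library, a ratio of 1.42 (1.30 to 1.55). Its catalytic partner Pi3K92E was at 21.7 and 22.6 FPKM (ratio 0.958, 0.907 to 1.01). The interval of Pi3K21B lay above 1 and that of Pi3K92E included 1. A difference at least as large as that of Pi3K21B was seen in 11.8% of the genes tested. Pdk1 was at 67.0 and 72.5 FPKM, and Akt1, the kinase that phosphorylates Foxo, at 22.7 and 20.3 FPKM (ratio 1.12, 1.05 to 1.19).

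The lowest difference of the list was that of step, the fly's cytohesin, at 106 and 143 FPKM (ratio 0.740, 0.714 to 0.767). Of the genes tested, 13.4% differed at least as much as step. Both crosses carried the element that expresses a lipid-binding domain joined to a green fluorescent protein. Whether RNA of that element was counted as step RNA was not tested. Of the adaptors of the receptor, dock was at 21.7 and 26.4 FPKM, a ratio of 0.822 (0.774 to 0.872), while Lnk was at 19.4 and 19.8 FPKM and drk, which links receptors to Ras, at 63.4 and 63.9 FPKM. sgg, the fly's glycogen synthase kinase 3, was at 48.2 and 44.4 FPKM.

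The list also holds genes of the TOR branch, which couples the pathway to growth. Tsc1 was at 19.4 and 24.5 FPKM, and gig, whose protein joins Tsc1 in the complex that inhibits Rheb, at 10.3 and 11.7 FPKM. Rheb, the GTPase that activates TOR, was at 112 and 121 FPKM. Tor was at 12.9 and 14.7 FPKM, raptor, of TOR complex 1, at 12.9 and 15.2 FPKM, and Lst8, of both complexes, had a ratio of 0.878 (0.821 to 0.939). The complex 2 genes were divided, with Sin1 at 9.91 and 11.1 FPKM and rictor at 12.4 and 10.9 FPKM. S6k, a kinase downstream of TOR, had a ratio of 1.11 (1.05 to 1.18), and L, which encodes the TOR regulator PRAS40, was at 54.2 and 51.4 FPKM. Scaled to an equal sum, the median of the cascade list was 0.18 instead of -0.10, so its side of 0 rests on the scale.

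Of the 7 extracellular and processing genes, 5 reached 1 FPKM and none passed the size rule, with a median of 0.03. ImpL2, a secreted protein that binds insulin-like peptides and limits their action, was at 73.0 and 63.4 FPKM, a ratio of 1.15 (1.10 to 1.20). In these embryos its level was above that of any ligand. Sdr, the secreted decoy of the receptor, was at 4.44 and 4.52 FPKM, and conv, related to the acid-labile subunit of mammals, at 7.40 and 7.42 FPKM. svr, a carboxypeptidase gene of peptide processing, was at 25.0 and 24.4 FPKM. The relaxin-like Ilp8 was at 0.907 and 0.568 FPKM, and its receptor gene Lgr3 at 0.250 and 0.187 FPKM.

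Of 8 known targets of Foxo, 5 lay above 0 and 3 below, while 43.5% of all genes tested lay above 0. None of the 8 passed the size rule, and the median was 0.09. The targets were not divided by whether Foxo activates or represses them. Thor, which encodes the translation inhibitor 4E-BP, was at 205 and 174 FPKM, a ratio of 1.18 (1.12 to 1.24). srl, the fly's PGC-1 coactivator, was at 21.7 and 18.3 FPKM (1.19, 1.12 to 1.26), and Pepck, a gluconeogenic enzyme gene, at 91.3 and 84.1 FPKM. ImpL2 is also on this list. The lipase gene bmm, a target induced in starvation, was lower instead, at 32.4 and 36.0 FPKM, a ratio of 0.900 (0.848 to 0.956). Lip4, a lipase gene, was at 10.5 and 10.5 FPKM. NLaz, a lipocalin gene, had a ratio of 1.04 (0.868 to 1.26), and daw, an activin-like ligand gene, was at 4.35 and 4.56 FPKM.

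**Figure D4:**
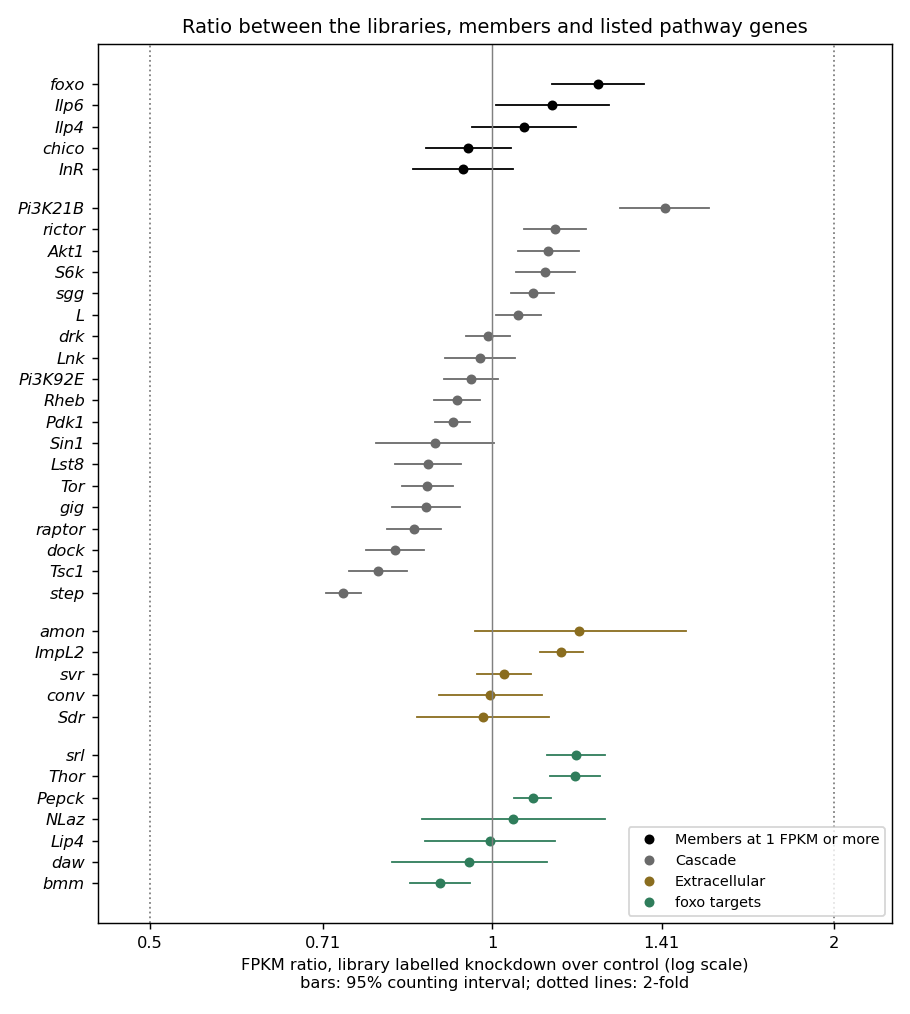
FPKM ratio of the library labelled knockdown over the control library on a log scale, with 95% counting intervals, for the 5 members at 1 FPKM or more and the tested genes of the cascade, extracellular and foxo target lists; dotted lines mark 2-fold. All points lie inside the dotted lines, with Pi3K21B farthest to the right at 1.42 and step farthest to the left at 0.740.

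Marker genes of the tissues that make these products, and of embryonic age, were read beside the members. Of 6 genes of late embryos 5 lay above 0, with a median of 0.30, with a sum of 1913 FPKM in the library labelled knockdown, against 1547 FPKM in the control library. Of 5 maternal RNAs of early embryos 3 lay below 0, with a median of -0.15, from bcd at 24.5 and 36.2 FPKM to osk at 34.8 and 27.0 FPKM. The 5 mesoderm markers, for the tissue that makes Ilp4, had a median of 0.02, the 4 midgut markers 0.17 and the 5 glial markers 0.06. Of the 5 fat body markers, the early gene Adh was at 216 and 205 FPKM, svp at 13.1 and 11.5 FPKM, while the larval genes Lsp1alpha, Lsp2 and Fbp1 were at 0.377 FPKM or less. Of the late-embryo genes, elav lay below 0, at 15.2 and 16.3 FPKM, and of the maternal RNAs nos lay above 0 as osk did, at 39.4 and 33.5 FPKM. Over all genes tested, 43.5% lay above 0. Whether the age of the embryos had a part in the differences of foxo and Ilp6 was not tested.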

How the data were processed

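The values analysed are FPKM per annotated transcript, 1 table per library, as deposited by the authors; TopHat and Cuffdiff are named in the submitters' processing notes, and for settings, strand handling, build and annotation the entry is: not given in the sources used here. Scaffold names in the tables are those of Drosophila Release 5. Libraries of 250 to 400 bp were made with a directional kit, per the labels' protocols. The authors' FPKM values were summed per gene identifier; 365 transcripts had none and were left out.

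Exon structures, strands and Release 6 positions came from the Ensembl annotation, matched by identifier. The files list InR as FBgn0013984, and Release 6 lists it under another identifier, so it was matched by symbol. For Ilp2 to Ilp7 the files give spans of overlapping genes, which are not printed. In the files Ilp1 has 465 nt, its coding sequence, against 631 nt in Release 6.

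The value of 1 fragment was read as the first peak of FPKM times length among genes with 1 transcript and a locus of their own, in 4 length classes from 400 to 3000 nt. Level intervals are exact Poisson and ratio intervals exact binomial (Clopper-Pearson) intervals. An exact 0 can be a failed estimate and is called listed at 0. Named genes are the 10 members, the listed pathway genes, overlapping or adjoining genes and Lim3; 1 gene of the cascade list is not reported here and entered neither its counts nor its median. The marker genes named come from the cell type marker lists and were singled out after their values were seen. Members and lists were chosen with earlier results of these data known. No genes of like pattern were sought, since 2 libraries give only a ratio. Python 3.11.15, pandas 2.3.3 and scipy 1.17.1 were used, and the calculations were tested on simulated data. The alternatives were other pseudocounts, filters, scalings, removal of the length trend and the most abundant transcript in place of the sum.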

Additional observations from a re-analysis of the deposited data

How the results depend on the processing

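No paired analysis was possible because each group has 1 library, and leaving out a replicate was not possible for the same reason. None of the members passed the size rule under any of the 8 other settings. Of all genes, 108 were past it higher and 145 lower in the library labelled knockdown; with 0.1 FPKM added 177 were higher and 210 lower, and with 5 FPKM added 52 were higher and 90 lower. Scaling to an equal sum of FPKM gave 146 higher and 100 lower and moved the median of all genes from -0.04 to 0.20. It moved the medians with it, to 0.36 for the members, 0.18 for the cascade list, 0.30 for the extracellular list and 0.35 for the foxo targets; the shift follows from the scaling itself. With the length trend removed the extracellular list was at -0.025. The single-gene differences of Ilp4, Ilp6 and foxo stayed above 0 under all settings that gave a value. With the most abundant transcript alone Ilp6 was at 0.0064. InR was then at -0.54, the value of FBtr0290230, the most abundant transcript in the control library. FBtr0290231, the most abundant in the library labelled knockdown, was at 0.76. Transcript shares of Ilp6 moved most when fragments replaced FPKM, since its transcripts differ in length: FBtr0070406 then held 75.8% and 67.1%. Depth limits the 5 ligands below 1 FPKM, which stand on 11 fragments or fewer, and the proximal InR transcript.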
